A study of Glycine max with 8 samples.

Results

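The plant circadian clock was followed through 10 listed soybean (Glycine max) genes in nodules, the root organs that house nitrogen-fixing rhizobia. The list was chosen by name and holds 4 copies of LHY, PRR3b, GIa (the maturity gene E2), GIb, ELF3 (the gene J) and the pair LUX1 and LUX2. Of these, 9 were analysed among the 43517 genes of the count table, and GIb (Glyma.20G170000.Wm82.a2.v1) was not analysed here. All plants were kept at low nitrogen and had received the strain labelled Bra.Q2. Group R had received that strain alone, and group BR had received the strain labelled Bac.B as well. Each group held 4 libraries, named R1 to R4 and BR1 to BR4. The cultivar, the age of the plants and the time of day of sampling are not given in the sources used here. Nothing in the labels says that libraries came from separate plants, so the spread that p-values rest on may be technical.

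The clock is a loop of transcription factors that repress each other in turn through the day. LHY proteins, of the MYB family, are made around dawn and repress genes that peak later. Pseudo-response regulators such as PRR3b follow during the day and repress LHY. GIGANTEA (GI), ELF3 and LUX accumulate towards evening, and ELF3 and LUX act in a repressor known as the evening complex. In soybean these genes are best known for setting flowering time and maturity in the shoot. A nodule sampled earlier or later could differ in opposite directions in morning and evening genes, depending on the time of day. Both sets are therefore described in every library.

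The deposited files give identifiers without names. The names used here are those attached to these identifiers in the list. The reference gene table held a clock gene of the same kind on the chromosome that the identifier carries for 10 of the 10 names, although none of the 43517 identifiers occurs in it. The reference name to look for was set by hand for each gene, such as LUXB for LUX1, so this is not an independent check. Library totals ranged from 14223489 to 17287964 counts. Counts of the 9 genes ranged from 116 to 3128 per library, so that counting error alone was at most 9.28% of a value. Copies of one gene are similar in sequence, and the sources used here do not say how reads fitting several copies were counted, so values of single copies are uncertain.

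All 9 genes were transcribed in every nodule library, at levels that differed widely. On the length-scaled FPKM scale, LHY1a was the highest of the 9 in all 8 libraries, from 33.8 to 61.2 FPKM, above 92.5% of the tested genes by its mean. LUX2 followed with a mean of 29.2 FPKM over the 8 libraries, then PRR3b with 22.5, GIa with 18.0 and ELF3 with 13.8. LUX2 lay above PRR3b in 7 of 8 libraries, PRR3b above GIa in 6 and GIa above ELF3 in 6, so neighbours in this part of the order were not separated in every library. ELF3 exceeded LUX1 in 8 of 8 libraries. LUX1 (mean 5.997 FPKM), LHY2a (5.98) and LHY1b (5.67) had overlapping ranges and changed places from library to library. LHY2b was the lowest of the 9 in all 8 libraries, at 2.27 to 3.89 FPKM.

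With the second strain added, no clock gene passed the test, and the gene nearest to it was PRR3b, 1.41-fold higher in BR. Of the 9 genes, 0 had an adjusted p below 0.05 (edgeR quasi-likelihood test, Benjamini-Hochberg adjustment over 29508 tested genes), against 18.3% of all tested genes, and 1 had an unadjusted p below 0.05, against 34.1%. DESeq2 called 1 of the 9, PRR3b, against 24.4% of all tested genes. In CPM (library-size-scaled counts, adjusted by TMM factors, which correct for differences in library composition), the BR and R libraries overlapped for all 9 genes, whereas 24.5% of the tested genes separated the groups without overlap. The log2 fold change (BR over R) was above 0 for 3 of the 9 and below 0 for 6, with a median of -0.11 beside -0.02 over all tested genes, of which 48.8% were above 0. With total counts only the tally was 6 above and 3 below 0, with a median of 0.09, and 63.2% of all tested genes were then above 0.

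**Figure D1:**
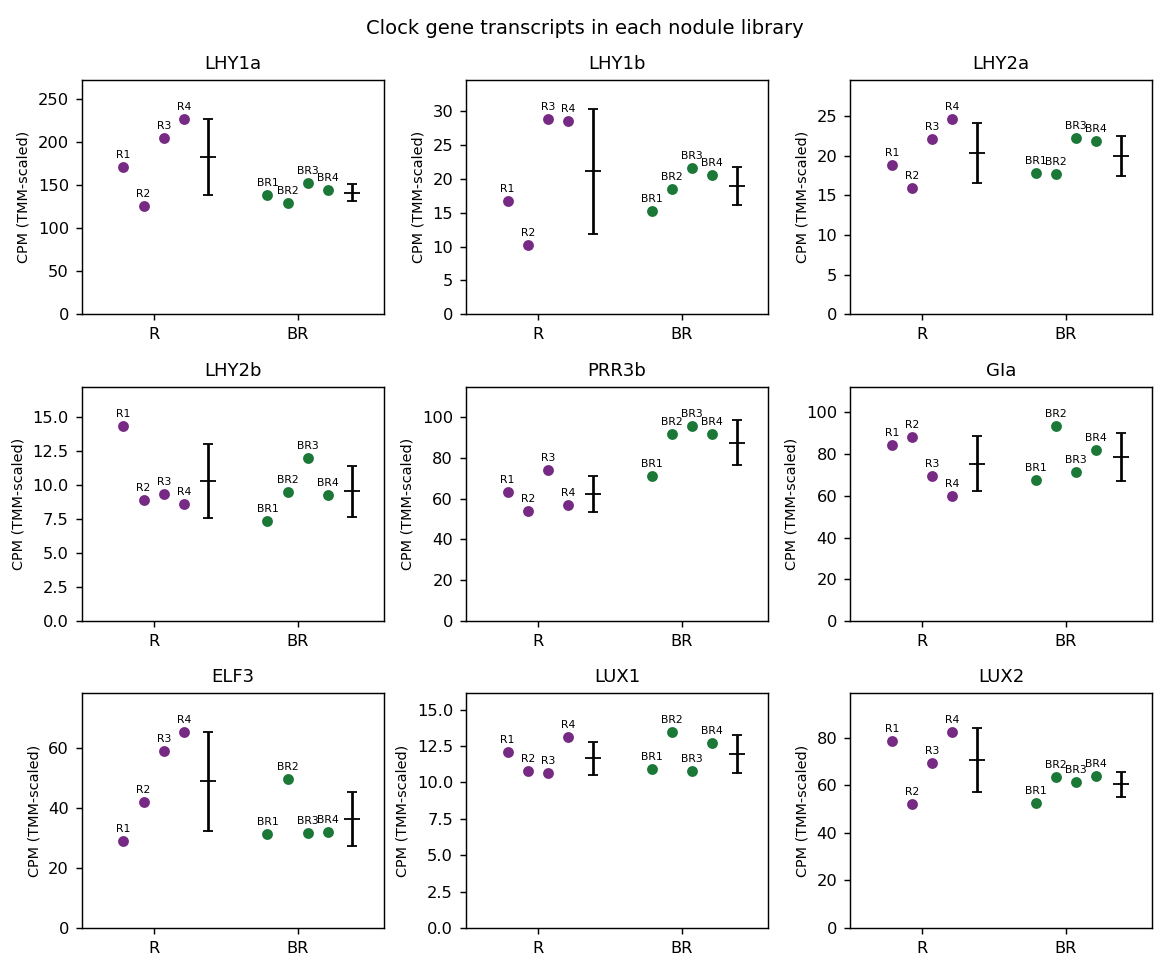
TMM-scaled CPM of the 9 clock genes in each library (points, labelled by library; R in purple, BR in green), with the mean and SD of each group of 4 as black bars to the right of its points and a separate vertical axis from 0 for each gene. PRR3b is higher in 3 of the BR libraries than in any R library, and for LHY1a and LHY1b the 4 R libraries spread more widely than the 4 BR libraries.

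LHY1a (Glyma.16G017400.Wm82.a2.v1, chromosome 16), which made up most of the LHY transcript, had a lower mean in BR. Its CPM were 139, 129, 153 and 144 across BR1 to BR4 and 172, 126, 205 and 227.5 across R1 to R4. R1, R3 and R4 lay above all BR libraries and R2 lay below them. The means were 141 ± 9.96 CPM in BR and 183 ± 44.2 in R (SD, n = 4), a difference of -0.37 on the log2 scale with an SE of 0.19 (edgeR adjusted p = 0.191). The 95% interval ran from 0.580-fold to 1.03-fold. The value moved with the R libraries and with the scaling. Without R2 the log2 fold change was -0.51 (edgeR adjusted p = 0.0408), in a fit that called 24.4% of all tested genes. It was -0.23 without R4 (edgeR adjusted p = 0.458), -0.06 without R3 and R4 (edgeR adjusted p = 0.872) and -0.18 with total counts only (edgeR adjusted p = 0.539).

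LHY1b (Glyma.07G048500.Wm82.a2.v1, chromosome 7) was the least even of the 9 genes within R. Its CPM were 15.3, 18.5, 21.6 and 20.6 across BR1 to BR4 and 16.7, 10.2, 28.9 and 28.6 across R1 to R4. R3 and R4 lay above all BR libraries and R2 below them, so that R enclosed BR. The log2 fold change was -0.15 with an SE of 0.30 (edgeR adjusted p = 0.754), with a 95% interval from 0.570-fold to 1.42-fold.

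LHY2a (Glyma.19G260900.Wm82.a2.v1, chromosome 19) was at nearly the same mean in both groups, 19.9 ± 2.53 CPM in BR and 20.4 ± 3.82 in R (SD, n = 4). Single libraries ran from 17.6 to 22.3 CPM in BR and from 15.9 to 24.7 in R, and the 95% interval of the difference ran from 0.756-fold to 1.27-fold (edgeR adjusted p = 0.915). LHY2b (Glyma.03G261800.Wm82.a2.v1, chromosome 3) was the weakest copy. Its CPM were 7.34, 9.50, 11.97 and 9.30 across BR1 to BR4 and 14.4, 8.88, 9.33 and 8.58 across R1 to R4. R1 was the highest library for this copy, unlike for the other copies, and the groups overlapped (log2 fold change -0.11, SE 0.22; edgeR adjusted p = 0.756; 95% interval 0.664-fold to 1.29-fold). The sign of the fold changes of LHY1b, LHY2a and LHY2b depended on the scaling: with total counts only they were 0.04, 0.16 and 0.09 on the log2 scale.

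The balance among the 4 LHY copies was described by their shares of the summed LHY FPKM, which do not depend on library scaling. LHY1a held 73.0% to 77.1% of the sum in BR and 77.1% to 78.4% in R. LHY1b held 8.39% to 10.4% in BR and 6.25% to 10.7% in R. LHY2a held 10.3% to 11.5% in BR and 8.57% to 10.2% in R. Its share was higher in every BR library than in every R library, but by a narrow gap (10.26% against 10.15%). Of all tested genes, 24.5% separated the groups in CPM, and no such share was counted for parts of a sum. LHY2b held 4.22% to 5.90% in BR and 3.06% to 6.67% in R. No test was made of these shares, which are parts of one sum and come from copies whose reads may be exchanged. The ratio of LHY2a to LHY2b was 1.31 and 1.79 in R1 and R2 and 2.36 and 2.87 in R3 and R4, and lay between 1.86 and 2.43 in BR.

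**Figure D2:**
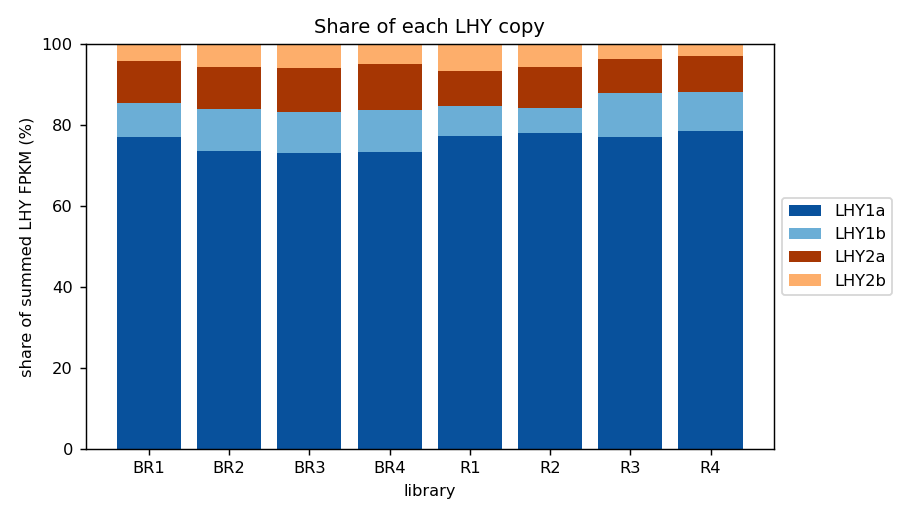
Share of each of the 4 LHY copies in the summed LHY FPKM (vertical axis, percent) in each library (horizontal axis). LHY1a takes between 73.0% and 78.4% in every library. The LHY2a segment is larger in each BR library than in each R library, by a narrow gap (10.26% against 10.15%).

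PRR3b (Glyma.12G073900.Wm82.a2.v1, chromosome 12), a pseudo-response regulator, had 71.0, 91.6, 95.7 and 91.5 CPM across BR1 to BR4 and 63.4, 54.1, 74.1 and 56.9 across R1 to R4. BR2, BR3 and BR4 lay above all R libraries, and BR1 lay just below R3. The means were 87.5 ± 11.1 CPM in BR and 62.2 ± 8.88 in R (SD, n = 4), a difference of 0.49 on the log2 scale with an SE of 0.15 (edgeR adjusted p = 0.0518). The 95% interval, from 1.11-fold to 1.79-fold, is unadjusted for the number of genes, and 38.5% of the tested genes had a larger fold change in either direction. The call turned on the processing. The adjusted p was 0.0486 with RLE factors (18.2% of tested genes called), 0.0166 with total counts only (20.4% called) and 0.0126 in DESeq2, and it was 0.0726 with the replicate number as a block (edgeR). In FPKM, which carry no composition factor, the 4 BR libraries (22.1 to 31.1) lay above the 4 R libraries (15.03 to 20.9). On that scale all genes leaned towards BR, with 64.3% of tested genes above 0 (log2 FPKM with a pseudocount of 1). The share of all genes that separate the groups in FPKM was not counted.

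GIa (Glyma.10G221500.Wm82.a2.v1, chromosome 10) is a copy of GIGANTEA, which in Arabidopsis works with light-sensing F-box proteins to remove clock and flowering repressors. Its CPM were 67.7, 93.6, 71.5 and 81.8 across BR1 to BR4 and 84.5, 88.1, 69.3 and 59.8 across R1 to R4. The highest library was in BR and the lowest in R, with the others interleaved. The log2 fold change was 0.06 with an SE of 0.17 (edgeR adjusted p = 0.832), with a 95% interval from 0.803-fold to 1.36-fold.

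Among the genes of the evening complex, ELF3 (Glyma.04G050200.Wm82.a2.v1, chromosome 4), its scaffold, varied most between libraries. Its CPM were 31.4, 49.9, 31.8 and 32.0 across BR1 to BR4 and 29.1, 42.2, 59.3 and 65.3 across R1 to R4. BR2 stood above the other BR libraries, and R3 and R4 stood above every BR library. The means were 36.3 ± 9.05 CPM in BR and 49.0 ± 16.5 in R (SD, n = 4), a difference of -0.43 on the log2 scale with an SE of 0.26 (edgeR adjusted p = 0.272; 95% interval 0.495-fold to 1.11-fold).

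LUX1 (Glyma.12G060200.Wm82.a2.v1, chromosome 12) and LUX2 (Glyma.11G136600.Wm82.a2.v1, chromosome 11) encode the DNA-binding subunit of that complex. LUX1 had 10.9, 13.4, 10.8 and 12.7 CPM across BR1 to BR4 and 12.1, 10.8, 10.7 and 13.1 across R1 to R4. It was the most even of the 9 genes within R, with an SD of 0.14 on the log2 CPM scale, where the median tested gene had 0.33. The 95% interval of its difference ran from 0.823-fold to 1.28-fold (edgeR adjusted p = 0.875). LUX2 had 52.7, 63.5, 61.6 and 64.0 CPM across BR1 to BR4 and 78.6, 52.2, 69.3 and 82.3 across R1 to R4. R1, R3 and R4 lay above all BR libraries and R2 below them, as for LHY1a (log2 fold change -0.22, SE 0.16; edgeR adjusted p = 0.364; 95% interval 0.664-fold to 1.10-fold), and with total counts only the log2 fold change was -0.03. Per length, LUX2 exceeded LUX1 by 4.16 to 5.04 times in BR and by 4.28 to 5.74 times in R.

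**Figure D3:**
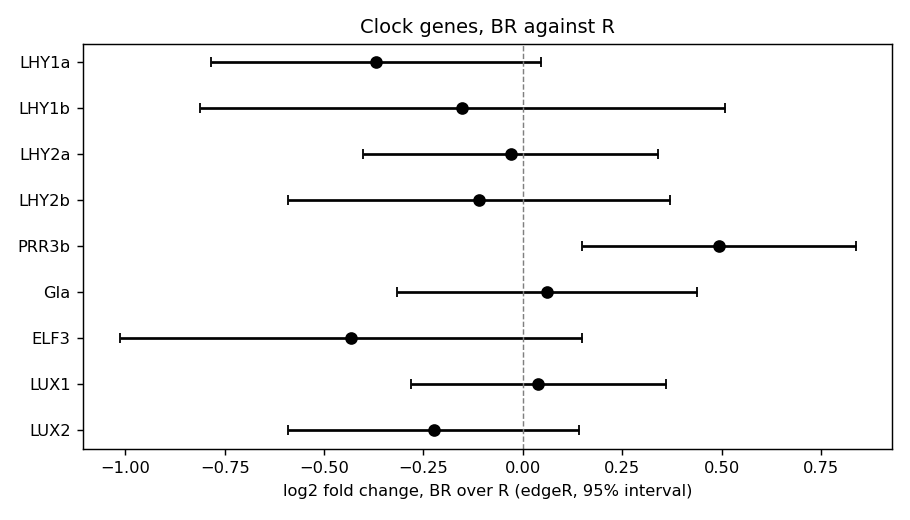
Log2 fold change of each clock gene, BR over R (horizontal axis; points), with 95% intervals from the edgeR fit that are not adjusted for the number of genes (bars). PRR3b alone has an interval that lies wholly above 0, at 0.15 to 0.84, and its adjusted p is 0.0518.

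Morning and evening genes were then set against each other within each library. For each library the mean log2 CPM of GIa, ELF3, LUX1 and LUX2 was subtracted from that of the 4 LHY copies, and the difference was centred on the mean of the 8 libraries. Library scaling cancels in this difference, and PRR3b was kept apart because it peaks between the 2 sets. Across BR1 to BR4 the values were -0.03, -0.32, 0.31 and 0.05, and across R1 to R4 they were 0.10, -0.37, 0.17 and 0.10. Group means were -0.00056 ± 0.260 in BR and 0.00056 ± 0.252 in R (SD, n = 4), so that the groups differed by far less than their libraries. As a measure over chosen genes it was given no test.

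**Figure D4:**
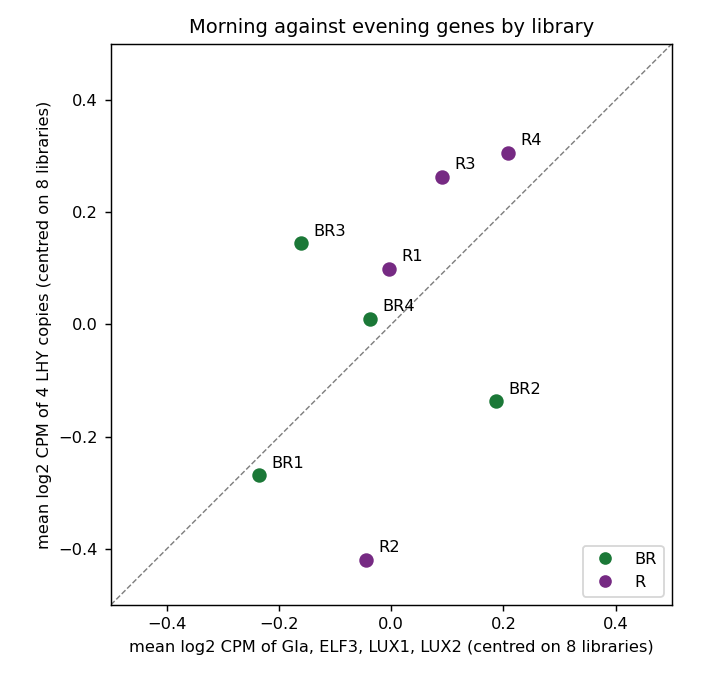
Mean log2 CPM of the 4 LHY copies (vertical axis) against that of GIa, ELF3, LUX1 and LUX2 (horizontal axis), each centred on the 8 libraries, with 1 point per library (R purple, BR green). The dashed line marks equal deviation of both sets; BR3 lies farthest above it (0.31) and R2 and BR2 farthest below it (-0.37 and -0.32).

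Low values of this difference arose in unlike ways. In BR2, GIa, ELF3 and LUX1 were each at their highest among the BR libraries, and LHY1a and LHY2a were at their lowest. LHY2a was only just below its BR1 value (17.6 against 17.8 CPM). LHY1b, LHY2b and LUX2 were near their means in BR2 (-0.05, -0.03 and -0.03). The LHY copies together were lower in BR1 (-0.27) than in BR2 (-0.14). In R2, LHY1a, LHY1b and LHY2a were each at their lowest of the 8 libraries. The evening genes together stood at -0.04 in R2, close to their mean, but were not alike. GIa was at 0.21 and ELF3 at 0.05, while LUX1 was at -0.13 and LUX2 at -0.31, its lowest of the 8 libraries. In R4 the LHY copies (0.31) and the evening genes (0.21) were both above their means. The counts of LHY1a were 1.38 to 2.14 times those of GIa in the BR libraries, and 2.03, 1.43, 2.96 and 3.81 times across R1 to R4.

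The R libraries fall into the pairs R1 with R2 and R3 with R4, as seen over all genes: differences in counts beyond counting noise (chi-square per degree of freedom) were 17.6 between R1 and R2 and 11.8 between R3 and R4, but 36.2 to 67.8 across the pairs. These pairs come from the data and not from the labels, so they were compared as single libraries with no test. Of the 9 clock genes, 4 were higher in both R3 and R4 than in R1 and R2 (LHY1a, LHY1b, LHY2a and ELF3), against 31.6% of all tested genes. GIa alone was lower in both, against 30.9%, and LHY2b, PRR3b, LUX1 and LUX2 overlapped. Together 5 of the 9 genes separated the pairs, a share near that of all tested genes.

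In R3 and R4, LHY1a, LHY1b and LHY2a were above their means and GIa was below its mean. The other genes did not divide in this way into morning and evening. ELF3, an evening gene, was high together with those LHY copies and had its highest values in R3 (0.54) and R4 (0.68) on the centred log2 scale. LHY2b, a morning gene, was at -0.06 in R3 and -0.18 in R4, and at 0.56 in R1. LUX1 stood at -0.14 and 0.15 in R3 and R4, and LUX2 at 0.10 and 0.35. The difference between ELF3 and its LUX partners, centred in the same way, was -0.64, 0.27, 0.56 and 0.43 across R1 to R4, and between -0.40 and 0.21 in BR. The difference between the LHY copies and the evening genes together was similar in R1 (0.10), R3 (0.17) and R4 (0.10). It set only R2 (-0.37) apart. The evening mean joins genes that moved apart, however. Against GIa alone, the difference was -0.05, -0.63, 0.40 and 0.66 across R1 to R4, and between -0.43 and 0.24 in BR. Against ELF3 alone, it was 0.58, -0.47, -0.28 and -0.37 across R1 to R4, and between -0.43 and 0.50 in BR. The part of sampling time in these values was not tested.

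**Figure D5:**
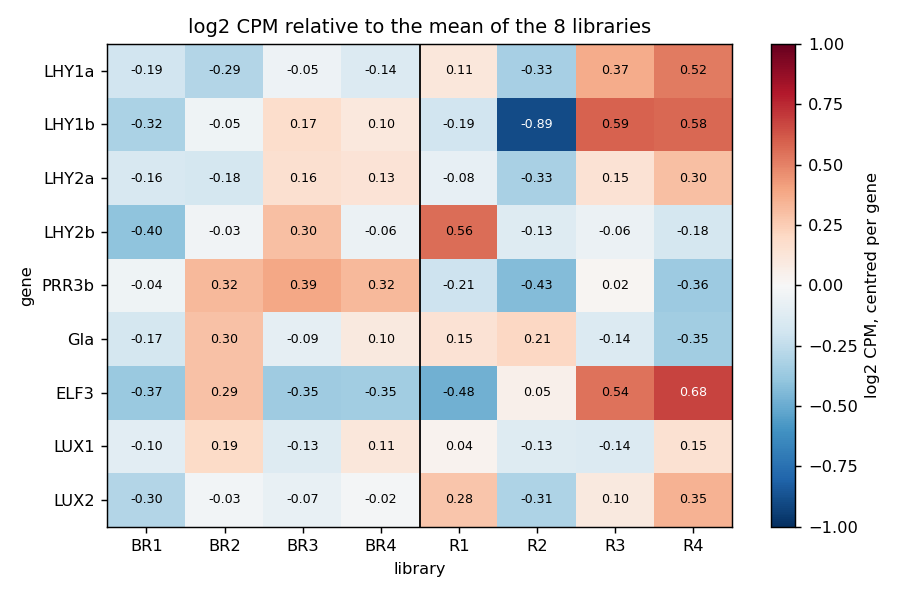
Log2 CPM of each clock gene (rows) in each library (columns) relative to that gene's mean over the 8 libraries, with values printed in the cells and red above and blue below the mean. In R3 and R4, LHY1a, LHY1b, LHY2a and ELF3 are above their means (0.15 to 0.68) and GIa is below (-0.14 and -0.35).

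R3 and R4 also differed from the other libraries in the trend of CPM with gene length. Measured against the average library, the slope of log2 CPM over log2 length was 0.142 in R3 and 0.148 in R4. BR1 lay about as far from 0 in the other direction, at -0.148, and the remaining libraries lay between -0.0659 and 0.0142. The 9 genes measured 1970 to 4276 bases by the deposited FPKM, GIa being the longest and LUX1 the shortest. With each library's length trend removed, the same 4 genes were higher in R3 and R4, against 30.4% of all tested genes, and GIa and LHY2b were lower, against 29.9%. Some of these gaps were then narrow: LHY1a was at 0.25 in R3 and 0.15 in R1, and LHY2a at 0.026 in R3 and -0.045 in R1. LHY2b was at -0.18 in R3 and -0.10 in R2. GIa was at -0.31 in R3 and -0.53 in R4.

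The comparison of BR with R depended on which R libraries entered. The pairs of R libraries were taken from these same data for their likeness, which narrows the spread within R. Adjusted p from the fits with 1 pair are therefore given as a description and are not evidence on single genes. With R3 and R4 as the only R libraries, 3 of the 9 genes were called, a share near the 33.2% of all tested genes, so the count does not set the clock genes apart. They were LHY1a with a log2 fold change of -0.60 (edgeR adjusted p = 0.0155), LHY1b with -0.58 (edgeR adjusted p = 0.0251) and ELF3 with -0.77 (edgeR adjusted p = 0.022). With R1 and R2 as the only R libraries, 0 of the 9 were called, against 11.5% of all tested genes, 1 had an unadjusted p below 0.05, and the log2 fold changes of LHY1b (0.51) and ELF3 (0.05) had the other sign. The R libraries were more spread than the BR libraries for 8 of the 9 genes, as for 64.3% of all tested genes. For LHY1b the R libraries had an SD of 0.71 in log2 CPM and the BR libraries 0.22, and for LHY1a these SDs were 0.37 and 0.10.

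The genes outside the list with the most similar course over the 8 libraries were looked for by the root mean square difference of centred log2 CPM, among the 19382 genes that averaged 5 CPM or more. Closest to the mean of the 4 LHY copies were Glyma.01G111300.Wm82.a2.v1 (0.0653), Glyma.10G266600.Wm82.a2.v1 (0.0682) and Glyma.14G039900.Wm82.a2.v1 (0.0798), where the median gene differed by 0.375. Closest to GIa were Glyma.15G123100.Wm82.a2.v1 (0.0689), Glyma.20G078300.Wm82.a2.v1 (0.0809) and Glyma.17G204800.Wm82.a2.v1 (0.0887), where the median was 0.389. These 6 identifiers have no names in the sources used here, and likeness over 8 libraries is given as a description only.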

How the data were processed

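Nodule RNA was sequenced from 8 libraries in 2 groups of 4, which the labels name. The authors deposited raw read counts per gene, 1 column per library, and FPKM for 39910 of the genes; the submitters' processing notes name HTSeq 0.6.0, HISAT2 2.1.0, Bowtie2 2.2.3, TopHat2 and CASAVA without their roles. The genome build and strandedness are not given in the sources used here. Counts divided by FPKM and library total gave 1 length per gene, used as gene length. The count test used edgeR 4.0.16 under R 4.3.3: filterByExpr (minimum count 10, total 15), TMM factors and the quasi-likelihood F test of BR against R without covariates, adjusted by the Benjamini-Hochberg method over all tested genes. Each SE was taken as the fold change on the log2 scale over the root of F, and intervals use the fit's degrees of freedom. Log2 CPM carry a prior count of 2. The script was tested on simulated data. Alternatives were DESeq2 1.42.0, limma 3.58.1 (voom, and log2 FPKM with pseudocounts of 1 and 0.1), other scalings and filters, a replicate block and libraries left out. The members, gene lists and rules were chosen with earlier results of these data known. Lists that rest on gene descriptions (other clock genes, clock outputs, nodule and green-tissue markers) and promoter motifs could not be applied, because no source used here ties identifiers to descriptions or sequences; the tissue label was therefore not checked against markers. The evening set planned with GIb was used without it. All named genes were fixed by rule: the listed genes and the 3 of most similar course to LHY and to GIa.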

Additional observations from a re-analysis of the deposited data

Results flagged for a closer look

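For the 9 genes and the morning minus evening difference, both groups of 4 were checked for 1 library lying far from its 3 companions. That made 20 checks, and about 1 in 20 is marked by chance. ELF3 in BR2, at 49.9 CPM, stood apart from 31.4 to 32.0 CPM in the other BR libraries. LHY2b in R1, at 14.4 CPM, stood apart from 8.58 to 9.33 CPM in R2, R3 and R4. The morning minus evening difference of R2, at -0.37, stood apart from 0.10 to 0.17 in the other R libraries.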

How the results depend on the processing

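The fits with a length trend removed and the sets with 1 clock gene left out were added after seeing the data. PRR3b was higher in BR in 21 of 21 alternatives and called in 10 of them. It was the 1 clock gene called with RLE, upper-quartile and total-count scaling, in DESeq2, in the 3 FPKM fits and with length trends removed, in which 18.2% to 24.4% of all tested genes were called. In limma-voom, without a filter and with the replicate block 0 were called, against 18.1%, 12.5% and 15.7% of all tested genes. Each of these fits had 1 unadjusted p below 0.05 (PRR3b, with a log2 fold change of 0.49 with the block). The share of all tested genes with an unadjusted p below 0.05 was counted in the main fit only (34.1%). Leaving out 1 library gave 0 to 1 calls: PRR3b without BR1 or R3 (11.6% and 11.7% of all tested genes called), and LHY1a without R2 (24.4%). Without BR2, BR3, BR4, R1 or R4, 0 were called, against 14.6%, 9.55%, 9.61%, 13.1% and 11.2% of all tested genes. Without R1 and R2, 3 were called, against 33.2% of all tested genes. Over all genes 2848 to 7333 were called without 1 library, 10237 without R1 and R2 and 3554 without R3 and R4, beside 5409; these fits hold fewer libraries, and what caused the rise was not tested. The higher share of all calls was 43.5% with TMM, 57.7% with upper-quartile and 71.2% with total counts, under which the median of all genes went from -0.02 to 0.089 and 0.18 on the log2 scale. Fold changes near 0 changed sign. LHY1b was at 0.041 with total counts, 0.11 in both fits of FPKM + 1, 0.15 with FPKM + 0.1 and 0.51 without R3 and R4. LHY2a was at 0.083 with upper-quartile and 0.16 with total counts, 0.15, 0.17 and 0.15 in the FPKM fits, 0.22 without R3 and R4 and 0.065 with length trends removed. LHY2b was at 0.092 with total counts, 0.070, 0.092 and 0.070 in the FPKM fits and 0.10 without R1 and R2. Without R3 and R4, GIa was at -0.11 and ELF3 at 0.051. Without 1 library LHY1b ran from -0.38 to 0.044, LHY2a from -0.13 to 0.092, LHY2b from -0.24 to 0.11, GIa from -0.036 to 0.15 and LUX1 from -0.023 to 0.12. LHY1a and LUX2 were below 0 in all alternatives but not stable in size: LHY1a ran from -0.60 without R1 and R2 to -0.055 without R3 and R4, and LUX2 from -0.34 without 1 library to -0.013 in the FPKM fits. The BR minus R difference of the morning minus evening measure lay between -0.19 (against GIa alone) and 0.13 (without R3 and R4). The SD between libraries was 0.256 in the main version and was not computed for the others. Against GIa alone, single R libraries ran from -0.63 to 0.66. Correlations between deviations of libraries with the same number were 0.0654, 0.0863, -0.0836 and 0.0903, none over 0.1, so the numbers were not taken to pair the libraries.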

Other observations

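The lowest morning minus evening value of each group was in the library numbered 2 (-0.32 in BR2 and -0.37 in R2) and the highest in the library numbered 3 (0.31 in BR3 and 0.17 in R3). Nothing in the labels says that a number is shared between groups, and this coincidence was not tested.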
